A study of Saccharomyces cerevisiae with 3 samples.

Results

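The proteasome genes of budding yeast were followed in Δ*sum1* cells that were moved out of sporulation medium. They were chosen by symbol from a fixed list of 34 genes, of which 33 code for subunits of the proteasome and 1, *RPN4*, codes for its transcription factor. The symbols were matched through their open reading frames (ORFs) to the spots of the arrays. Of the 34 genes, 33 were measured, among 6218 genes on the arrays. The exception was *SEM1*, a small subunit of the lid, which had no spot on these arrays.

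The proteasome is the protease that degrades proteins marked with ubiquitin. Its barrel-shaped core particle is built from rings of alpha subunits, which form the gate, and rings of beta subunits, some of which carry the proteolytic sites. The regulatory particle caps the core. Its base holds a ring of ATPases that unfold substrates and push them into the core, and its lid removes the ubiquitin. In yeast, Rpn4 binds a short element in the promoters of proteasome genes and activates them, and Rpn4 itself is rapidly degraded by the proteasome. Degradation by the proteasome also drives the meiotic divisions, through the anaphase-promoting complex.

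The Δ*sum1* cells were diploids of SK1, a laboratory strain background used because it sporulates efficiently, and carried a deletion of *SUM1*, a repressor of mid-sporulation genes. The 3 samples came from this strain after 6 hours in sporulation medium (SPM, acetate with no nitrogen source) and at 20 and 40 minutes after part of that culture was resuspended in YPD, a rich glucose medium. Each sample was hybridized in Cy5 to 1 array of PCR products, against the same Cy3 reference on all arrays, RNA of wild-type SK1 diploids grown in YPA, a rich acetate medium. The reference therefore differed from the 6-hour sample in genotype and in medium, and these cannot be told apart. No culture was kept in SPM for the additional minutes, so that medium, time and slide cannot be told apart either.

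Every value below is a log2 ratio of Cy5 over Cy3 relative to the median of its array, or a difference between such ratios, with the standard deviation (SD) between the 2 adjacent spots of the gene. With 1 array per time point there were no replicates, so no test was made. The spot SD measures the array alone and says nothing of how cultures or slides vary. Pooled over all genes it was 0.15, 0.17 and 0.19 at 6 hours, 20 minutes and 40 minutes. A gene is called higher or lower at 1.5-fold, which is 0.585 on the log2 scale. Counts over all genes refer to the 6161 genes that had a spot above the signal floor.

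The direction of every ratio rests on the dye assignment. The channel labels and the scanner headers put the Δ*sum1* sample in Cy5, whereas the labeling protocol of the samples names the dyes in the opposite order. The study's own array checklist also assigns Cy5 to the samples and Cy3 to the reference, and this assignment was followed here. With it, 7 of 8 genes of sporulating cells exceeded the reference at least 2-fold after 6 hours in SPM. Over all genes, 1338 of 6161 did. In 5 of the 8 genes a spot was under the floor at this time, so that their ratios are bounds. The spot of *SUM1*, the deleted gene, lay below the reference on each array, at -1.76, -1.37 and -1.64. Its Cy5 signal was 1771, 1304 and 904, above the floors of 656, 397 and 268. The mean Cy5 signal of the buffer spots, which represent no gene, was 1650, 1304 and 1236. Whether the *SUM1* spot held signal of its own in the Δ*sum1* samples was not tested. Of 9 genes of haploid or mating cells, which a diploid culture should lack, 5 exceeded the reference at least 2-fold at 6 hours. The count over all genes was again 1338 of 6161. Of the 5 marker genes, 4 had no spot under the floor at this time. The part of these genes in the values of the proteasome genes was not tested. The median Cy5 intensity above background was 4280, 2748 and 1616 on the 3 arrays, and that of Cy3 was 3939, 3399 and 2811.

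At 6 hours in SPM the proteasome genes stood above the growing reference. The median ratio of the 32 measured subunits was 0.73, or 1.66-fold, against 0 over all genes. Of the subunits, 19 were higher than the reference by 1.5-fold and 1 was lower, where 31.2% of all genes were higher and 28.9% were lower. In all, 31 subunits lay above the reference, between 0.23 for *RPN6* and 1.53 for *RPN10*. The exception was *RPN1*, a large scaffold of the base, at -0.72, or -0.50 and so within 1.5-fold where the mean of the buffer spots, the floor that the study describes, was used. With spots above an intensity of 30000 omitted, fewer subunits had a value and 12 were higher.

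The core particle was the highest of the assemblies at this time. Its 14 genes had a median ratio of 0.96, and 12 of them were higher by 1.5-fold. The medians of the base and the lid were 0.41 and 0.56, with 3 of 10 and 4 of 8 genes higher. Over all genes 31.2% were higher, so that by this count the base was near the share over all genes. In the order of the 32 ratios at 6 hours, 28 of the 31 steps from a gene to the next were smaller than the pooled spot SD, so that most neighbors in this order did not differ beyond their spread.

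After transfer to YPD the subunits were lower nearly throughout. At 20 minutes the median change from 6 hours in SPM was -2.30, which is 4.92-fold lower, against -0.26 over all genes. By this measure 30 of the 32 subunits were lower by 1.5-fold and 0 were higher, where 39.2% of all genes were lower and 26.4% were higher. The 30 subunits were also lower by 2-fold, a limit that 26.3% of all genes passed. At 40 minutes the median change was -2.36, which is 5.13-fold lower, against -0.33 over all genes. Again 30 of the 32 were lower by 1.5-fold, where 42.5% of all genes were lower. They were also lower by 2-fold, as 30.5% of all genes were. At this time 1 subunit was higher, where 27.1% of all genes were. The comparisons at 20 and 40 minutes share the array at 6 hours, so they are not independent of each other.

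**Figure D1:**
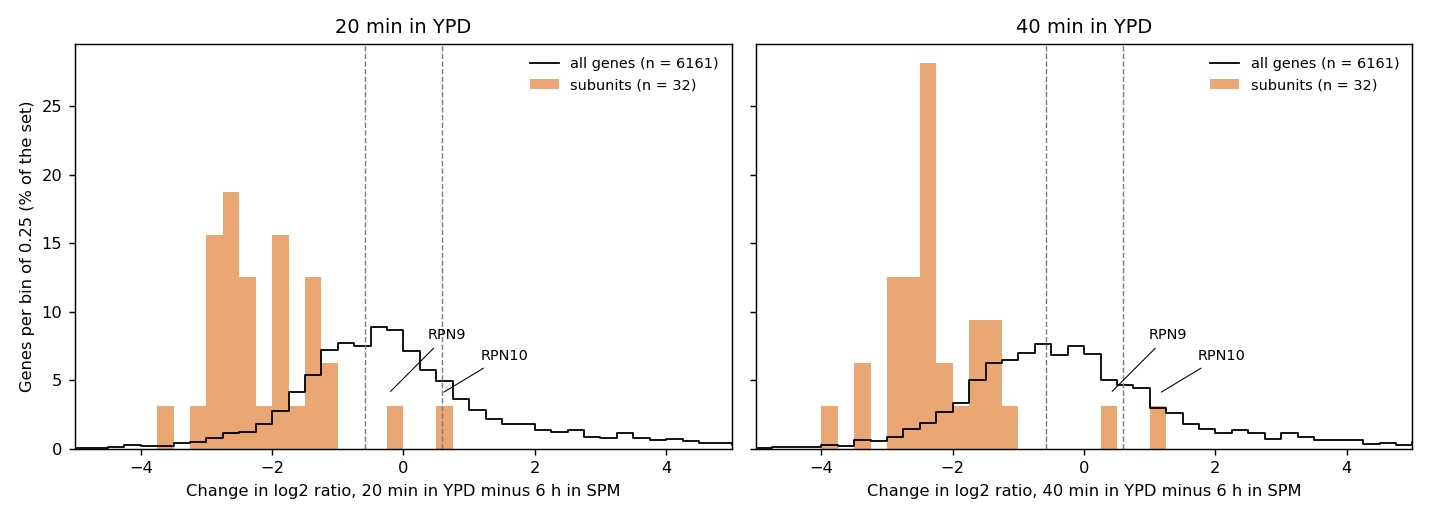
Distribution of the change in log2 ratio from 6 hours in SPM, at 20 minutes (left) and 40 minutes (right) in YPD, for the 32 measured subunits (filled bars) and for all 6161 genes (black line), as percent of each set per bin of 0.25. The axis is shown from -5 to 5, dashed lines mark 1.5-fold, and 30 of the 32 subunits lie left of the lower line at each time.

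Measured against the YPA reference, the subunits crossed from above to below. The median ratio was -1.48 at 20 minutes and -1.55 at 40 minutes, against 0.02 and -0.02 over all genes. At 20 minutes 28 subunits were lower than the reference by 1.5-fold and 1 was higher, where 34.9% of all genes were lower and 36.7% were higher. At 40 minutes 27 were lower and 2 were higher, where 36.3% of all genes were lower and 35.1% were higher. Since RNA came from whole cultures, a lower level in every cell and a loss of transcripts from part of the cells cannot be told apart.

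**Figure D2:**
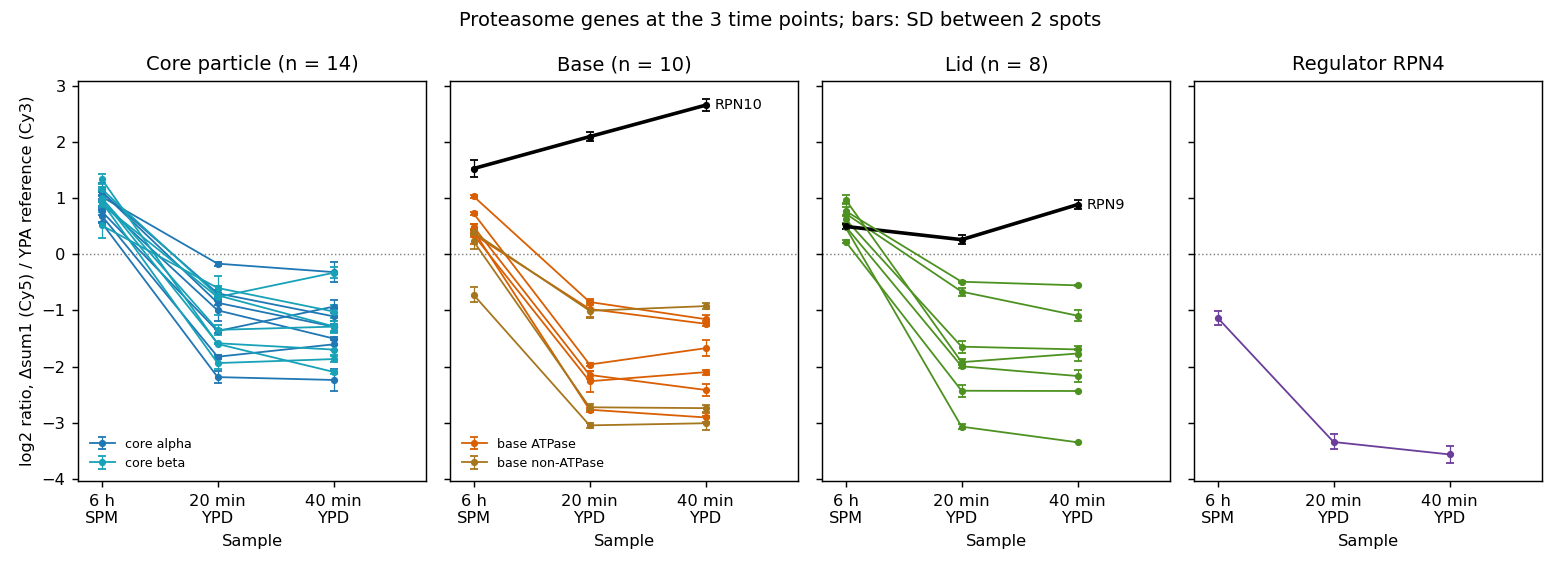
Log2 ratio of Δ*sum1* cells over the YPA reference for each measured proteasome gene, by assembly, against sampling time (6 hours in SPM, then 20 and 40 minutes in YPD). Error bars are the SD between 2 spots of 1 array. *RPN10* and *RPN9* (black) are the only subunits above 0 in YPD.

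The shift was in the channel of the Δ*sum1* sample. Relative to the median of all genes in the same channel, the Cy5 signal of the subunits had a median log2 value of 2.44 in SPM, and of 0.64 and 0.36 at the successive times in YPD. The Cy3 signal of the reference, which was the same RNA throughout, had medians of 1.89, 2.09 and 2.07. The change in Cy5 alone had a median of -2.002 after 20 minutes and -1.99 after 40 minutes, and 30 subunits were lower by 1.5-fold at each time, where 34.9% of all genes were lower. In Cy3 alone the medians were 0.15 and 0.10. No spot of the 32 subunits was under the floor used here on any array. The mean Cy5 signal of the buffer spots was higher than that floor, at 1304 after 20 minutes and 1236 after 40 minutes. At 20 minutes the Cy5 signal of *PRE1* (732) was below this mean. At 40 minutes those of *PRE1* (531), *RPN3* (766), *PRE3* (894), *RPN1* (1092) and *RPN2* (1146) were below it.

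In the core particle, the 7 genes of the alpha ring were all lower by 1.5-fold at 20 minutes, with a median of -1.97 and a range of -2.75 for *PRE10* to -1.19 for *PRE8*. At 40 minutes the median was -2.29, and the range ran from -2.80 for *PRE10* to -1.34 for *PRE8*. The Cy3 signal of *PRE8* was 4073 at 40 minutes, against 11871 at 6 hours, for the same reference RNA. In Cy5 alone its change was -0.67 at 20 minutes and -2.17 at 40 minutes, and *PRE5* was then the end of the range at 40 minutes, at -1.37. *PRE9*, which codes for the alpha subunit that yeast can live without, was at -1.97 and -2.40.

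The 7 beta-ring genes were also all lower, with medians of -2.35 at 20 minutes and -2.45 at 40 minutes. The genes of the catalytic subunits had the 3 most negative changes of the 7 at each time, although the step from *PUP1* to the next gene was about the size of the pooled spot SD. In Cy5 alone this order was lost. *PRE1*, for a noncatalytic subunit, was then at -2.61 and -2.30, more negative at both times than *PUP1*, at -2.20 and -2.19. *PRE2*, for the chymotrypsin-like site, had ratios of 0.93 ± 0.01 in SPM, and of -1.94 ± 0.10 and -1.87 ± 0.06 at the 2 times in YPD. It was 7.32-fold lower at 20 minutes and 6.97-fold lower at 40 minutes than at 6 hours. *PUP1*, for the trypsin-like site, had ratios of 0.99 ± 0.13, -1.59 ± 0.01 and -1.70 ± 0.09 at the 3 times. Its change was -2.58 at 20 minutes and -2.69 at 40 minutes.

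*PRE3*, for the caspase-like site, had the highest ratio of the core at 6 hours, 1.34 ± 0.09, and ratios of -1.60 ± 0.01 and -2.10 ± 0.04 in YPD. It was 7.68-fold lower at 20 minutes and 10.9-fold lower at 40 minutes. Its Cy3 signal for the same reference RNA was 14847, 23370 and 6481 on the 3 arrays, so that the amount of signal at this spot differed between slides in both channels. In Cy5 alone *PRE3* was 3.80-fold lower at 20 minutes and 15.03-fold lower at 40 minutes. Its Cy5 signal at 40 minutes was 894, under the mean of the buffer spots, 1236.

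The smallest changes among the beta genes were those of *PRE7* and *PUP3*, which code for noncatalytic subunits. *PRE7* had ratios of 0.52 ± 0.23, -0.60 ± 0.03 and -1.02 ± 0.11, a change of -1.12 ± 0.26 at 20 minutes and -1.54 ± 0.34 at 40 minutes. *PUP3* had ratios of 0.89 ± 0.03, -0.76 ± 0.03 and -0.33 ± 0.10. At 40 minutes its change, -1.22 ± 0.13, was the smallest of the core in the ratios, whereas in Cy5 alone that of *PRE7* was, at -0.655. *PRE1* had the dimmest Cy5 spots of all the subunits in YPD, at 1.84 and 1.98 times the floor, and was the only subunit with a spot that the scanner software marked for a low signal-to-noise ratio.

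**Figure D3:**
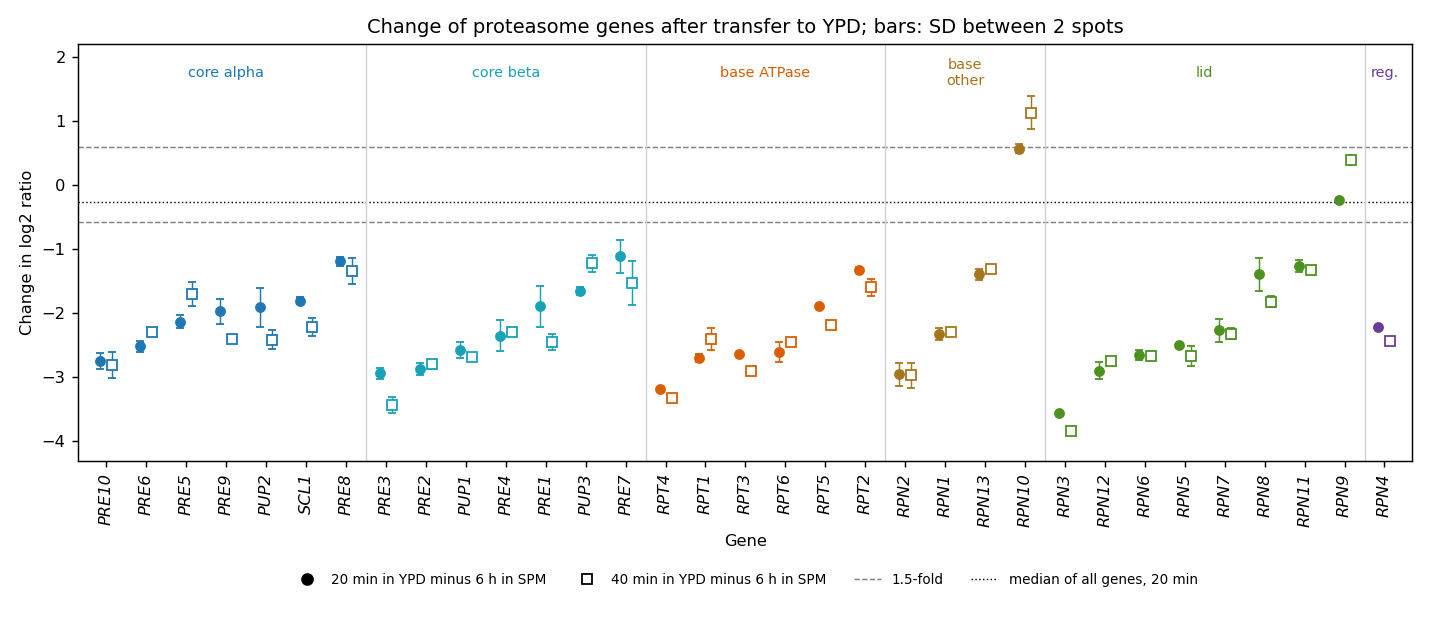
Change in log2 ratio from 6 hours in SPM for the 32 measured subunits, grouped by assembly, and for the regulator *RPN4*, at 20 minutes (filled circles) and 40 minutes (open squares) in YPD. Error bars are the SD between 2 spots, dashed lines mark 1.5-fold, and the dotted line is the median of all genes at 20 minutes. *RPN10* and *RPN9* stand apart from the other subunits, which lie between -3.83 and -1.12.

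In the base, the 6 ATPase genes were all lower at each time. Their medians were -2.62 at 20 minutes and -2.42 at 40 minutes. *RPT4* had ratios of 0.42 ± 0.01, -2.77 ± 0.03 and -2.91 ± 0.07, and was 9.12-fold lower at 20 minutes and 10.04-fold lower at 40 minutes. At the other end was *RPT2*, whose product helps to open the gate of the core, with changes of -1.33 and -1.59.

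The 4 other genes of the base took different courses. *RPN2*, the second large scaffold, had ratios of 0.23 ± 0.13, -2.73 ± 0.05 and -2.74 ± 0.06, and changes of -2.96 and -2.97. *RPN1* had ratios of -0.72 ± 0.13, -3.05 ± 0.04 and -3.01 ± 0.13. It was thus already 1.65-fold below the reference at 6 hours, and its changes of -2.33 and -2.29 were near the median of the subunits. *RPN13*, a ubiquitin receptor, had changes of -1.40 and -1.31.

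*RPN10*, which codes for another ubiquitin receptor of the proteasome, was the subunit with the highest ratio at each time. Its ratios were 1.53 ± 0.15 in SPM, and 2.10 ± 0.08 and then 2.66 ± 0.11 in YPD. The Cy5 signal behind them was 28997, 30936 and 26146, on arrays whose median Cy5 signal declined, and the Cy3 signal was 10557, 9293 and 7027. The change was 0.57 ± 0.07 at 20 minutes, 1.48-fold and just short of the limit, and 1.13 ± 0.26 at 40 minutes, 2.19-fold. Among all genes these changes stood at the 73.3 and 82.1 percentiles. *RPN10* was the 1 subunit that was higher at 40 minutes, and its 2 spots gave 1.31 and 0.95. With the buffer floor, its change was -0.002 at 20 minutes and 0.46 at 40 minutes, both within 1.5-fold. Loess normalization gave 0.03 and 0.70.

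In the lid, 7 of the 8 measured genes were lower at each time, and the median of the 8 was -2.38 at 20 minutes and -2.49 at 40 minutes. *RPN3* showed the largest change of all subunits in the ratios. Its ratios were 0.48 ± 0.04, -3.07 ± 0.04 and -3.35 ± 0.001, and it was 11.7-fold lower at 20 minutes and 14.2-fold lower at 40 minutes. Over all genes, its change stood at the 0.86 percentile at 20 minutes and at the 0.89 percentile at 40 minutes. In Cy5 alone it was again the most negative at 20 minutes, at -3.02, but not at 40 minutes, when it was at -3.25 and *PRE3* at -3.91. The Cy5 signal of *RPN3* at 40 minutes was 766, under the mean of the buffer spots, 1236. With that mean as the floor *RPT4* was the most negative at 40 minutes. *RPN11*, for the deubiquitinase of the lid, was at -1.26 and -1.33.

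*RPN9*, for a structural subunit of the lid, differed from the others. It had ratios of 0.50 ± 0.05 in SPM, and of 0.26 ± 0.08 and then 0.89 ± 0.08 in YPD. Its change was -0.24 ± 0.03 at 20 minutes and 0.39 ± 0.03 at 40 minutes, both within 1.5-fold. The first is close to the median of all genes, at the 50.9 percentile. In the order of the changes, the gap from *RPN9* to the next lower subunit was 0.88 at 20 minutes and 1.61 at 40 minutes, where the pooled spot SD of a change was 0.23 and 0.24. Of the 31 steps in that order, 26 were smaller than this SD at each time. With the buffer spots as the floor *RPN9* was lower by 1.5-fold at 20 minutes, at -0.81, and likewise with loess at -0.71. Its change at 40 minutes ranged from -0.28 to 0.56 over the alternative settings.

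The second 20 minutes in YPD added little. The median difference between 40 and 20 minutes was -0.06, against -0.07 over all genes. Of the 32 subunits, 21 stayed within 1.3-fold, where 60.2% of all genes did. By 1.5-fold 1 subunit was higher and 0 were lower, where 7.95% of all genes were higher and 12.3% were lower. The 1 subunit was *RPN9*, at 0.62 ± 0.0003, followed by *RPN10* at 0.56 ± 0.19. The most negative difference was that of *PRE1*, -0.55 ± 0.44. Under the alternative settings the number higher ranged from 0 to 5 and the number lower from 0 to 2.

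Before the transfer, the gene of the transcription factor stood on the other side of the reference from most subunits. *RPN4* was below the reference at each time, at -1.13 ± 0.13 in SPM, and at -3.34 ± 0.13 and then -3.57 ± 0.15 in YPD. At 6 hours it was 2.19-fold lower than the reference, whereas 31 of 32 subunits were above it. Its change was -2.21 at 20 minutes and -2.44 at 40 minutes, 4.64-fold and 5.41-fold lower, which lies close to the medians of the subunits. Its Cy5 signal was 7352, 1286 and 762, and its Cy3 signal was 16947, 16584 and 15143. In YPD the Cy5 signal was under the mean of the buffer spots, 1304 and 1236. With that mean as the floor the changes of *RPN4* were -2.62 and -2.39, against subunit medians of -2.87 and -2.97.

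Of 6 other genes that act on *RPN4* or on the Rpn4 protein, *PDR3* had both spots under the floor of at least 1 channel on each array, so that no change is given. Of the other 5, 4 were lower by 1.5-fold at 20 minutes, where 39.2% of all genes were, and 5 at 40 minutes, where 42.5% were. Their medians were -1.27 and -1.35. *UBR2* and *MUB1* code for a ubiquitin ligase and its partner that mark Rpn4 for degradation. *MUB1* had ratios of 2.56, -0.26 and -0.80, a change of -2.82 and -3.37. *UBR2* was above the reference at all times, at 2.78, 1.59 and 1.13, with changes of -1.18 and -1.65. At 40 minutes the Cy5 signal of *UBR2* was 1195, under the mean of the buffer spots, 1236. Its lowest ratio at this time over the alternative settings was 0.04. *PDR1*, for an activator of drug resistance genes that also acts on *RPN4*, had changes of -0.57 and -1.10.

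Of 17 genes for assembly factors and partners of the proteasome, all measured, 12 were lower and 1 was higher by 1.5-fold at each time. Over all genes, 39.2% were lower and 26.4% were higher at 20 minutes, and 42.5% and 27.1% at 40 minutes. The median changes were -0.91 at 20 minutes and -1.23 at 40 minutes. *UMP1*, for the maturation factor of the core, had ratios of 0.69, -1.86 and -1.82, and changes of -2.55 and -2.51. *NAS2*, for a chaperone of the base, had changes of -2.47 and -2.70. These values lie within the range of the subunits.

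Other genes of this list did not follow in the ratios. *PBA1*, for a chaperone of alpha-ring assembly, was higher, with ratios of -0.46, 0.68 and 0.35 and changes of 1.14 ± 0.01 and 0.81 ± 0.12. The lowest changes of *PBA1* over the alternative settings were 0.57 and 0.14, both within 1.5-fold. *HUL5*, for a ubiquitin ligase of the proteasome, had changes of 0.32 and 0.36. Its Cy5 signal was only 939, 652 and 482. In both channels its signal was under the mean of the buffer spots on each array. *BLM10*, for an alternative activator of the core, was at 0.05 and -0.15 and stayed below the reference, with ratios of -1.09, -1.04 and -1.24. The Cy3 signal of *BLM10* was 4827, 1999 and 3417 on the 3 arrays, for the same reference RNA. Its lowest change at 20 minutes over the alternative settings was -0.88, past 1.5-fold. The spot assigned to *POC4* bears the name of a noncoding RNA gene on the array, so that its value, within 1.5-fold at both times, is uncertain.

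**Figure D4:**
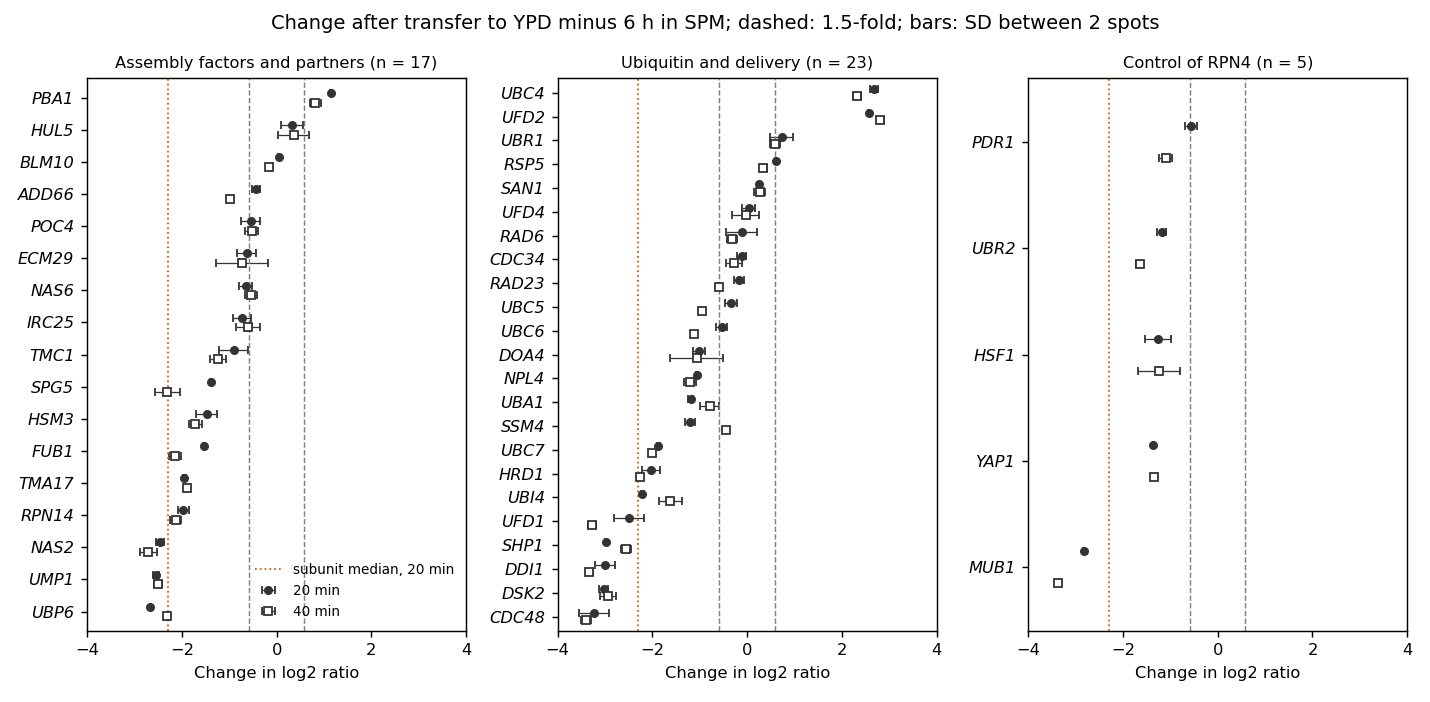
Change in log2 ratio from 6 hours in SPM for genes of proteasome assembly (left, 17), of ubiquitin and substrate delivery (middle, 23) and of the control of *RPN4* (right, 5, without *PDR3*), at 20 minutes (filled circles) and 40 minutes (open squares) in YPD. Error bars are the SD between 2 spots, dashed lines mark 1.5-fold, and the dotted line is the subunit median of -2.30 at 20 minutes.

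The 23 genes of ubiquitin, its ligases and the delivery of substrates moved in both directions. At 20 minutes 12 were lower and 4 were higher by 1.5-fold, against 39.2% and 26.4% of all genes, with a median of -1.02. At 40 minutes 14 were lower and 3 were higher, against 42.5% and 27.1%, with a median of -0.96. *CDC48*, for the ATPase that extracts ubiquitinated proteins, was the lowest of the list in the ratios, with values of -0.28, -3.52 and -3.69 and changes of -3.24 ± 0.31 and -3.40 ± 0.10. *DDI1*, for a shuttle that binds the proteasome, had changes of -3.00 and -3.33. *UBI4*, the polyubiquitin gene, had ratios of -1.07, -3.28 and -2.69 and changes of -2.21 and -1.62. Its repeats resemble the ubiquitin parts of other genes, which the spot may also detect.

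In the other direction, *UFD2*, for an enzyme that lengthens ubiquitin chains, had ratios of -1.05, 1.52 and 1.76, and was 5.91-fold higher at 20 minutes and 7.01-fold higher at 40 minutes. *UBC4*, for a ubiquitin-conjugating enzyme, had ratios of -2.36, 0.32 and -0.04, with changes of 2.67 and 2.32. It has a close relative in *UBC5*, with changes of -0.34 and -0.96, and PCR products may not separate them fully. The ligase genes *UBR1*, at 0.73 and 0.59 (-0.084 at 40 minutes with the buffer floor), and *RSP5*, at 0.60 and 0.34, make up the counts of higher genes and were named after their values were seen.

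The subunit genes are not direct neighbors of each other. The 32 measured subunits are spread over 13 chromosomes, and in the gene table of the R64 assembly none of the 33 members overlaps another gene or has another member as its neighbor. The spots are PCR products and do not separate the strands. Of 57 measured genes next to a subunit gene, 25 were lower and 15 were higher by 1.5-fold at 20 minutes, and 22 were lower and 18 were higher at 40 minutes. The shares over all genes were 39.2% lower and 26.4% higher at 20 minutes, and 42.5% and 27.1% at 40 minutes. The medians of these neighbors were -0.38 and -0.40, against -2.30 and -2.36 for the subunits. *GCD1*, for a subunit of a translation initiation factor, lies between *RPT4* and *RPN8* and was chosen after its values were seen. Its changes were 3.37 and 3.23, where those of *RPT4* were -3.19 and -3.33 and those of *RPN8* were -1.39 and -1.82. *RET2* likewise lies between *PRE4* and *RPN12*, and had changes of 0.53 and 0.67.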

How the data were processed

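The ratios of 3 samples were compared, from 1 two-color array per time point. The authors scanned the arrays and quantified each spot with QuantArray, and the deposited intensity of each channel comes with a local background that had not been subtracted. The authors also deposited log2 ratios, for which they subtracted the background, applied a floor, set each array's median to 0, averaged duplicates and left out poor spots, which a program of theirs and inspection by eye had found. The deposited flag of spots whose signal-to-noise ratio is under 3 was used for an alternative only.

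Here each spot's background was subtracted, any signal under the floor was raised to it, log2(Cy5/Cy3) was centred on the median of the gene spots and the 2 spots were averaged. The study describes its floor as the mean of the buffer spots, which did not lead to the deposited log2 ratios. The floors were therefore recovered from those ratios, and the buffer mean was run as an alternative. The resulting values were within 0.001 of them, after alignment of the centre, for 97.9%, 98.4% and 98.1% of 5496, 5494 and 5469 genes. At least 1 channel floor was passed by 6161 genes, and 57 were under both on all arrays. Genes were named through R64, which lists 5663 of the 6218 array genes. The steps were tested on simulated data.

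The members and lists were chosen with earlier results of these data known. Values in every sample are given for the 3 genes at each end of the order of change, *RPN4*, the catalytic beta genes and any member past 1.5-fold in a direction that under 5 took. From the other lists, the 2 most negative and 2 most positive mean changes are named, with *UBI4*, *UMP1*, *BLM10* and *CDC48*. Results were recomputed under 14 alternatives and 1 added after the data were seen, with limma 3.58.1 in R 4.3.3 for normexp (offset 50) and loess, and with numpy 2.4.6 and pandas 2.3.3 in Python 3.11.15 otherwise.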

Additional observations from a re-analysis of the deposited data

How the results depend on the processing

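The 30 subunits that were lower by 1.5-fold at 20 minutes and the 30 at 40 minutes were lower by this limit under every alternative in which they had a value, and 18 of the 19 that were higher at 6 hours in SPM were higher by it. The stricter 2-fold limit is given below. Of 336 recomputed values for the subunits as a set and *RPN4*, 288 stayed within the pooled spot SD or, for counts, within 1.5 times, and 48 did not. For single genes and smaller groups 3016 of 3573 did. Where the reported value was at least 1.5-fold, 0 of 134 values changed sign for the set and *RPN4*, and 5 of 2645 for single genes and smaller groups. Where it was under 1.5-fold, 9 of 28 and 46 of 928 did, among them the median difference of the subunits between 40 and 20 minutes, which ranged from -0.13 to 0.19.

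The mean of the buffer spots as the floor gave subunit medians of 0.95 at 6 hours, -1.82 and -1.999 at 20 and 40 minutes against the reference, and -2.87 and -2.97 as changes, where the median of all genes was -0.51 and -0.50. The number lower at 6 hours was then 0, the number higher than the reference at 40 minutes was 1, and the number higher than at 6 hours was 0 at 40 minutes. *RPN4* had -0.91, -3.52 and -3.29, a change of -2.62 at 20 minutes and a difference of 0.23 between 40 and 20 minutes. The 5 values of at least 1.5-fold that changed sign did so with this floor, which were *IRC25* at 40 minutes (0.046), *ECM29* at 20 and 40 minutes (0.16 and 0.14), *UBR1* at 40 minutes (-0.084) and *DOA4* at 40 minutes (0.10). The cause was not tested.

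Loess gave -1.78 at 20 minutes against the reference and a change of -2.57, and with normexp -1.75 and -2.57. *RPN4* was then at -3.52 and, with normexp, at -3.58, with a change of -2.47. The Cy5 channel alone gave changes of -2.002 and -1.99, and of -1.91 and -1.89 for *RPN4*. It gives no ratio to the reference. At 20 minutes 1 subunit was higher in Cy5 alone, with low signal-to-noise spots omitted or with the first spot only.

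Omission of spots above 30000, added after seeing the data, leaves fewer subunits and gave 12 higher at 6 hours and 0 higher than the reference at 20 minutes. At 6 hours 12 subunits had such a spot in Cy5. The 2-fold limit gave 8 of 32 subunits higher and 0 lower at 6 hours. Over all 6161 genes, 1338 were higher and 1108 were lower by this limit. At 40 minutes 1 subunit was higher than the reference by 2-fold, where 1658 of the 6161 genes were. Between 40 and 20 minutes, the number higher was 0 with the buffer floor, Cy5 alone, spots above 30000 omitted or the 2-fold limit, 2 with spots under the floor omitted, normexp, the deposited ratios, the first spot or dim genes left out, 4 with normexp and loess and 5 with loess. The number lower was 1 with the buffer floor, either spot alone or spots above 30000 omitted, and 2 in Cy5 alone.

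No paired analysis was possible because each time point has 1 array. The number of arrays limits the precision, and the Cy5 signal at 40 minutes was the dimmest.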
